A study of Mus musculus with 8 samples.

Results

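The glucocorticoid receptor gene Nr3c1 and 7 genes that are tied to it in lymphocytes, Fkbp5, Fkbp4, Tsc22d3, Sgk1, Per1, Dusp1 and Zfp36, were followed across an array study of dioxin-treated mice. Every probe set that the array's annotation pairs with 1 of these 8 gene symbols was taken, which gave 14 probe sets of 22626 tested, or 8 genes of 12393: 3 each for Nr3c1 and Tsc22d3, 2 each for Fkbp5 and Fkbp4, and 1 each for Sgk1, Per1, Dusp1 and Zfp36. A probe set is a group of short probes against 1 stretch of transcript, and its level is given on a log2 scale on which 1 unit is a doubling of signal. The 8 arrays had medians of 4.81 to 4.91. Of the 14 probe sets, 10 lay above the median of every array, while 1421866_at (Nr3c1) and 1425281_a_at (Tsc22d3) lay below it on all 8 arrays, and both Fkbp4 probe sets dipped below it on 1 or 2 arrays.

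The study asked what activation of the aryl hydrocarbon receptor (AhR) does to cells that leave the thymus. Its 4 groups, of 2 arrays each, were emigrants after TCDD, emigrants after oil, thymocytes after TCDD and thymocytes after oil. All cells came from female C57BL/6 mice aged 6 to 8 weeks that had been injected intraperitoneally with the dioxin TCDD, a strong AhR agonist, at 10 µg/kg in corn oil, or with corn oil only, and whose thymi were labelled with the dye FITC 5 days later. After a further 24 h the cells negative for CD4 and CD8 were sorted from the spleen (thymus emigrants) or the thymus (thymocytes). The series text adds that the sorted cells carried FITC, so both treatments and both sources share the intrathymic injection. Nothing in the labels tells whether both arrays of a group stem from different animals or from pools, so each p-value reflects only the variation among these samples, and that may be technical. Groups follow the sample titles. The labels are not free of conflict: under Treatment, TCDD is entered for emigrants oil 1 and "Dioxane 2" for emigrants oil 2, and under Tissue, thymus is entered for some emigrants.

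The glucocorticoid receptor waits in the cytoplasm in a complex with heat shock proteins and an FK506-binding immunophilin. Fkbp5 and Fkbp4 encode the competing immunophilins FKBP51 and FKBP52, of which FKBP51 lowers the affinity for hormone and FKBP52 helps the receptor reach the nucleus. With hormone bound, the receptor binds a palindrome, the glucocorticoid response element, and raises genes such as Fkbp5 itself, which closes a short feedback loop, Tsc22d3 (GILZ, an inhibitor of NF-kappaB and AP-1), Sgk1 (a kinase), Per1 (a clock gene), Dusp1 (a phosphatase of MAP kinases) and Zfp36 (tristetraprolin, which destabilises cytokine mRNA). In the thymus the pathway is best known for killing immature double-positive thymocytes during stress.

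Promoter sequences of 4 members are shown to mark where the letters of motifs that the receptor or other factors can bind occur. RefSeq entries of the GRCm38.p6 assembly, from 250 bases before to 50 after a transcript start, were found for 7 of the 8 genes, with 15 starts in all. Capitals mark matches on either strand of the glucocorticoid response element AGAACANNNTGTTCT, its half-site AGAACA, the E-box CACGTG, the heat shock element GAANNTTC and the cAMP response element TGACGTCA. The Fkbp5 start lies on the minus strand at chr17:28486100-28486399 and that of Fkbp4 on the minus strand at chr6:128438607-128438906. The Sgk1 start shown, 1 of 6, lies on the plus strand at chr10:21993640-21993939, and that of Dusp1 on the minus strand at chr17:26508423-26508722.
Fkbp5: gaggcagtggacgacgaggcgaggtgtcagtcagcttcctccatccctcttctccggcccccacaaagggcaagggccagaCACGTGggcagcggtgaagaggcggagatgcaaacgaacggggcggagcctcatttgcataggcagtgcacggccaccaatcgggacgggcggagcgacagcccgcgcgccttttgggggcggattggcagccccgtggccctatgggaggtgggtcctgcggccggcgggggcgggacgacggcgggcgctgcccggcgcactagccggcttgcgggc
Fkbp4: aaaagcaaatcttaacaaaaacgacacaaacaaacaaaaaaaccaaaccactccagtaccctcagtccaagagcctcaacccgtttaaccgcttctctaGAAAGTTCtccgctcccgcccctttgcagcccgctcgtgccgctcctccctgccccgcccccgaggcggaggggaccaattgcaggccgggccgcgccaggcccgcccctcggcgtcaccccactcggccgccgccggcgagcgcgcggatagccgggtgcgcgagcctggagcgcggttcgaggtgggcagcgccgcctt
Sgk1: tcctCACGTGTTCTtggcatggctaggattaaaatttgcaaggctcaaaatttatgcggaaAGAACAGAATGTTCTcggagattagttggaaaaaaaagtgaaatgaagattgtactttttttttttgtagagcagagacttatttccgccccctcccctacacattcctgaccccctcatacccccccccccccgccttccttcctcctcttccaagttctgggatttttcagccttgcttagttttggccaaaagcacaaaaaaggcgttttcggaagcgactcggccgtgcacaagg
Dusp1: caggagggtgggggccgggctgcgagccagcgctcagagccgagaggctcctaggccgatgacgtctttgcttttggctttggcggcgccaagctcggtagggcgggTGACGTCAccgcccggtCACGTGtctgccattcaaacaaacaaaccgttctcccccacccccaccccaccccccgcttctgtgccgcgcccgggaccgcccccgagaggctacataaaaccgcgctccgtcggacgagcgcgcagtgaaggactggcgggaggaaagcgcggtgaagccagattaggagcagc
Of the 6 Sgk1 starts, the 1 shown was picked because it holds the complete palindrome, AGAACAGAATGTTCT. No other of the 15 member promoters held it. The first base of the palindrome is at position -189 when the start site is 0. Only 3 of all 32851 promoters (0.00913%) carry this exact 15-base form, those of Sgk1, Acnat2 and Gm35041. Both arms of the palindrome count as half-sites, at -189 and -180, and the heat shock match at -183 lies within it. A further half-site at -242 overlaps the E-box at -246. The half-site alone is frequent, in 19.0% of promoters, and was found in 4 of the 15 member promoters, all of Sgk1 or Tsc22d3. Fkbp5 has an E-box at -169, a motif of 7.15% of promoters, and Fkbp4 a heat shock match at -151, a motif of 7.86%. Dusp1 has a cAMP response element at -143 (1.79% of promoters) and an E-box at -126. The core that the AhR binds, GCGTG on either strand, was in 6 of the 15 member promoters (of Tsc22d3, Sgk1, Per1 and Zfp36), against 32.4% of all promoters. These are matches of letters in short windows and not sites shown to be bound, and the receptor acts on several of these genes from sites outside such windows.

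The cells carried markers of more than 1 lineage, and 2 emigrant arrays stood apart. Cd3e and Cd3g lay above 8.0 on all arrays, while the mean of 10 T lineage markers was 5.95 to 6.87 in emigrants and 7.26 to 7.72 in thymocytes. Granulocyte markers were also present, with list means of 5.86 to 8.74 in emigrants and 6.53 to 8.02 in thymocytes, and the highest of these was emigrants TCDD 1. Rag1, the recombinase of immature lymphocytes, was at 5.10, 3.75 and 3.89 on the other emigrant arrays but at 9.81 on emigrants oil 2, within the thymocyte range of 9.33 to 10.21. AhR target genes followed the titles, with Cyp1b1 at 6.87 and 8.36 in TCDD emigrants against 4.69 and 6.25 in oil emigrants, and at 8.46 and 9.59 in TCDD thymocytes against 4.62 and 5.04 in oil thymocytes. The gap between 3' and 5' probe sets of beta-actin, a sign of RNA length, was 3.34 to 4.68 in emigrants and 3.06 to 4.31 in thymocytes. That of Gapdh was 4.81 to 5.32 in emigrants and 4.78 to 6.23 in thymocytes. In each group the beta-actin gap was larger on replicate 1. The Gapdh gap was larger on replicate 1 in thymocytes and on replicate 2 in emigrants.

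The receptor and its immunophilins were lower in emigrants than in thymocytes, without passing the test, and this was the clearest pattern among the 14 probe sets. The comparison of the 4 emigrant arrays with the 4 thymocyte arrays, taken as the mean of the differences under TCDD and under oil, was tested with limma across all 22626 probe sets, calling adjusted p-values (Benjamini-Hochberg) under 0.05. It called 14 probe sets in all (0.0619%) and no member. At an unadjusted p under 0.05 there were 4 members lower and 1 higher, where 7.62% and 6.52% of all probe sets reach that level. In 4 of the 14 member probe sets every emigrant array lay below every thymocyte array, against 5.64% of all probe sets, and in 0 every emigrant array lay above, against 6.12%. The median difference of the members was -0.08, beside 0.03 over all probe sets, with 5 of them higher and 9 lower.

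**Figure D1:**
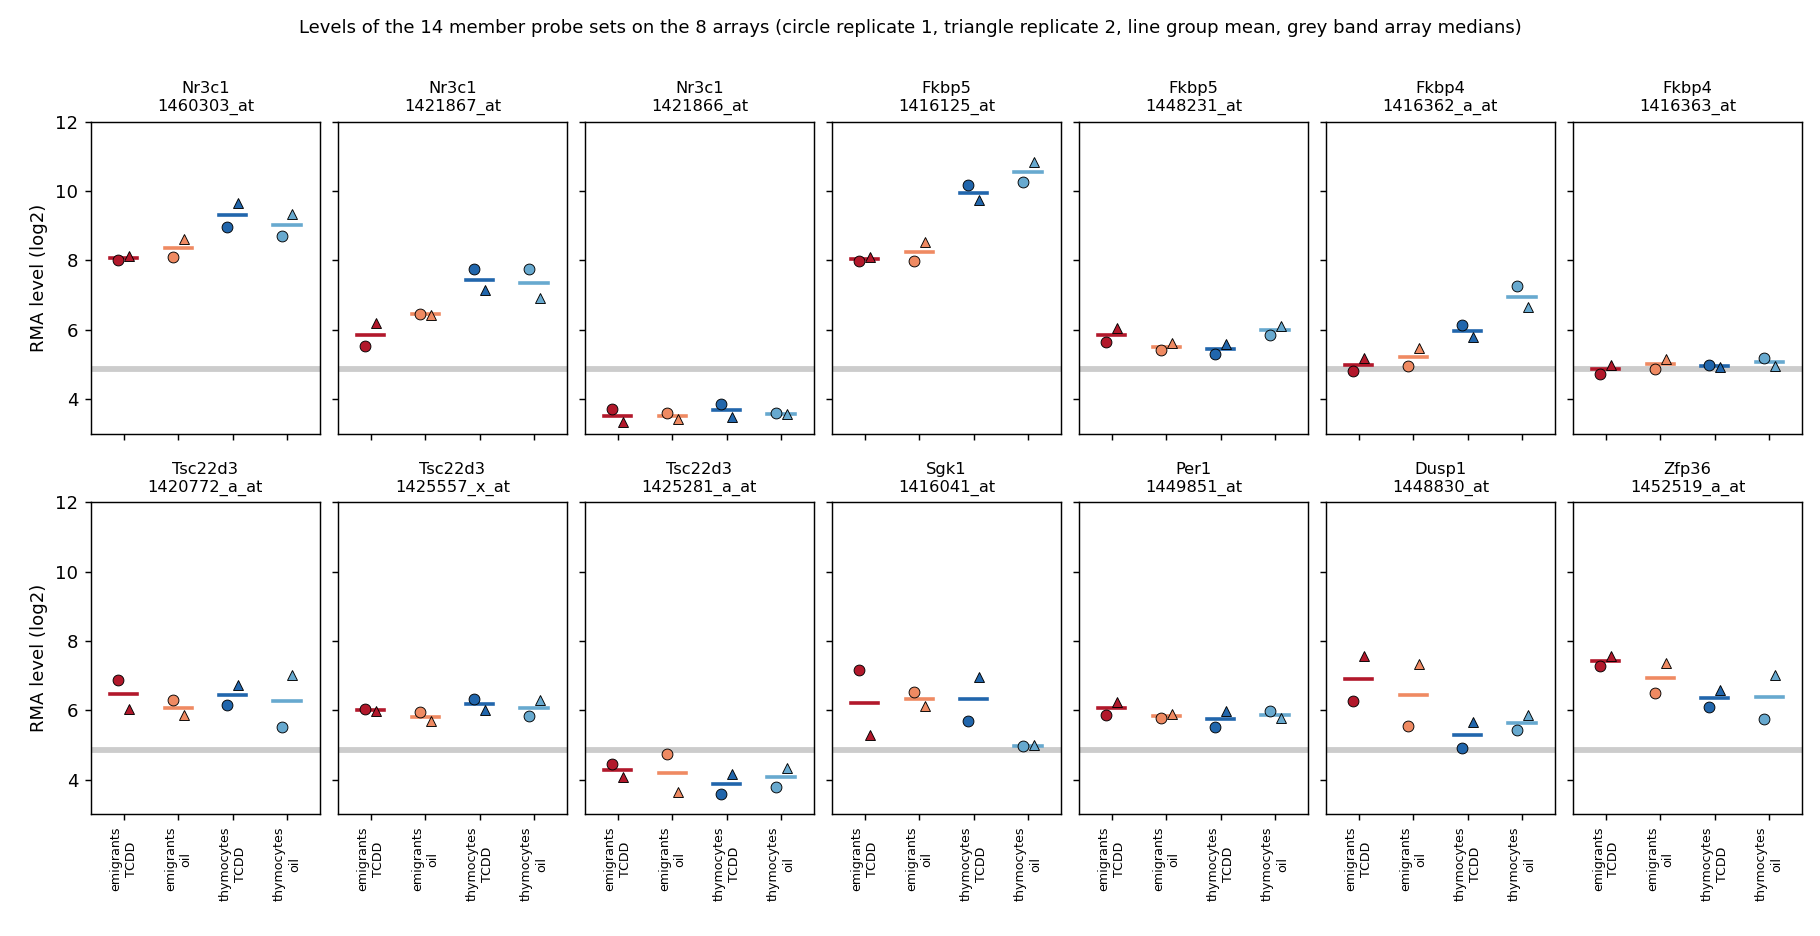
RMA level (log2) of each member probe set on the 8 arrays, in 4 groups of 2 (circle replicate 1, triangle replicate 2, line group mean, grey band array medians). Fkbp5 1416125_at, Fkbp4 1416362_a_at and the 2 brighter Nr3c1 probe sets show emigrant arrays below all thymocyte arrays.

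Fkbp5 differed most between the sources. Its brighter probe set, 1416125_at, read 7.98 and 8.09 in TCDD emigrants and 7.97 and 8.54 in oil emigrants, against 10.17 and 9.73 in TCDD thymocytes and 10.27 and 10.84 in oil thymocytes. The highest emigrant array stayed 1.19 log2 units under the lowest thymocyte array, the widest such gap among the members. The difference was -2.11 ± 0.20 (SE, n = 4 arrays a source), a level 4.31-fold lower in emigrants, with a limma adjusted p of 0.0517, just outside the threshold. It was -1.92 under TCDD and -2.30 under oil, so the direction was the same in both treatments. With 1 array left out in turn it ran from -2.25 (without emigrants oil 2) to -1.96 (without emigrants oil 1). Several settings that kept all 8 arrays placed it inside the threshold. A trend and robust prior did not (limma adjusted p 0.0651). The second Fkbp5 probe set, 1448231_at, did not share the pattern: it ran from 5.40 to 6.05 in emigrants and from 5.29 to 6.11 in thymocytes, a difference of -0.04 ± 0.14. The source result for Fkbp5 therefore rests on 1 of its 2 probe sets.

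Fkbp4 gave 4.80 and 5.17 in TCDD emigrants and 4.95 and 5.47 in oil emigrants with 1416362_a_at, against 6.14 and 5.78 in TCDD thymocytes and 7.26 and 6.64 in oil thymocytes. Again no emigrant array reached a thymocyte array, although the emigrant levels were close to the array medians, for which reason no fold is given. The difference was -1.36 ± 0.21 (SE) with a limma adjusted p of 0.0655, and -1.49 without emigrants oil 2. The other probe set, 1416363_at, stayed within 4.73 to 5.19 on all 8 arrays and is near the level of an average probe set, with a difference of -0.08 ± 0.12.

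Nr3c1, the receptor itself, was read by 2 probe sets well above the array medians. With 1460303_at it was at 8.01 and 8.13 in TCDD emigrants and 8.09 and 8.62 in oil emigrants, against 8.96 and 9.65 in TCDD thymocytes and 8.69 and 9.34 in oil thymocytes. The sources did not overlap, but the gap between the nearest arrays was only 0.07. The difference was -0.95 ± 0.23 (SE), or 1.93-fold lower in emigrants, with a limma adjusted p of 0.152. With 1421867_at the levels were 5.53 and 6.18 in TCDD emigrants and 6.45 and 6.43 in oil emigrants, against 7.74 and 7.15 in TCDD thymocytes and 7.75 and 6.92 in oil thymocytes. This probe set also showed no overlap, with a difference of -1.24 ± 0.26, or 2.37-fold lower, and a limma adjusted p of 0.111. Both probe sets thus separated the sources in the same direction, whereas the third, 1421866_at, at 3.34 to 3.87, was below every array median, so no fold is given. In the order of group means, both brighter probe sets ran from thymocytes TCDD through thymocytes oil and emigrants oil down to emigrants TCDD. The 2 thymocyte groups overlapped in both.

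**Figure D2:**
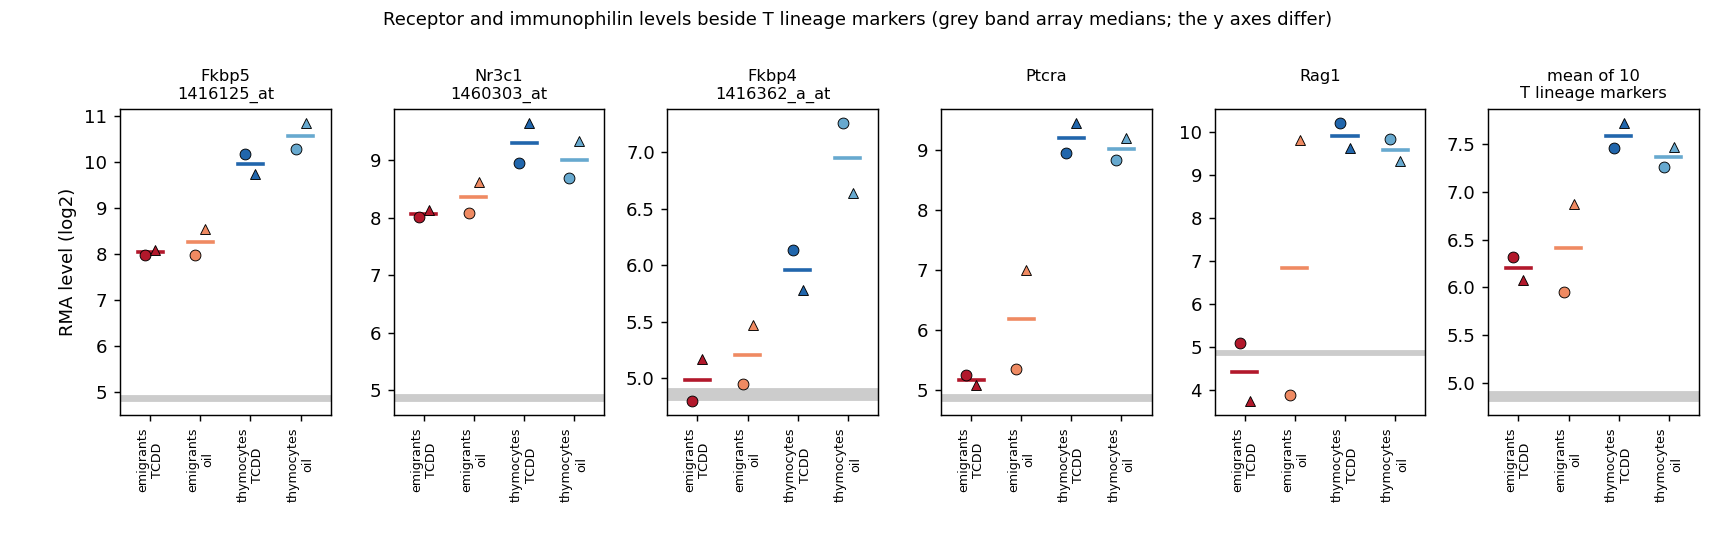
RMA level (log2, axes differ) of Fkbp5, Nr3c1 and Fkbp4 beside Ptcra, Rag1 and the mean of 10 T lineage markers, per array (circle replicate 1, triangle replicate 2, line group mean). The members and the marker mean are lower on all 4 emigrant arrays, and Rag1 is at thymocyte level on 1 of them.

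Some T lineage markers, among them Ptcra, moved with these levels, and others did not. Ptcra, the pre-T-cell receptor alpha chain of immature thymocytes, was at 5.25 and 5.08 in TCDD emigrants and 5.35 and 7.00 in oil emigrants, against 8.95 and 9.45 in TCDD thymocytes and 8.83 and 9.20 in oil thymocytes (difference -3.44, limma adjusted p 0.0534). On each emigrant array 5 to 9 of the 10 T lineage markers were above the array median, against 8 to 10 on each thymocyte array. None of the 10 passed the threshold between the sources, and 8 of them had a lower mean in emigrants, with a median of -0.51. Cd3e and Cd4 had a higher mean instead. Cd3e ran from 8.30 to 8.91 in emigrants and from 8.09 to 8.34 in thymocytes. Emigrants oil 2, the array with thymocyte-level Rag1, was the highest emigrant array for Fkbp5 1416125_at (8.54), Nr3c1 1460303_at (8.62) and Fkbp4 1416362_a_at (5.47). For Nr3c1 1421867_at the highest was emigrants oil 1 (6.45), with emigrants oil 2 at 6.43. The mean over 4 B cell markers was also lower, at 4.46 to 4.87 in emigrants and 5.45 to 6.18 in thymocytes. In 2 of the 4 (Cd79b and Ms4a1) the sources did not overlap, against 6.04% of genes lower in emigrants. Cd79a and Pax5 lay below the median of every array. Pax5 was at 4.07 to 4.41 in emigrants and 3.84 to 4.22 in thymocytes. The mean over 4 NK cell markers was 6.96 to 7.79 in emigrants and 6.32 to 7.27 in thymocytes, and no gene of either list passed the threshold. The part of these cells in the result for Nr3c1, Fkbp5 and Fkbp4 was not tested. In sorted bulk samples fewer cells of a type and less RNA per cell cannot be told apart.

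Among the target genes proper, Dusp1 and Zfp36 had the largest upward differences in emigrants, without passing the test. Dusp1 was at 6.26 and 7.56 in TCDD emigrants and 5.54 and 7.35 in oil emigrants, against 4.92 and 5.67 in TCDD thymocytes and 5.42 and 5.87 in oil thymocytes. Emigrants oil 1 lay inside the thymocyte range and the other 3 emigrant arrays above it. The difference was 1.20 ± 0.49 (SE), with a limma p of 0.0463 and an adjusted p of 0.343. Without emigrants oil 2 it was 0.75, and under oil alone it was 0.79 with that array and -0.11 without it. Zfp36 was at 7.28 and 7.56 in TCDD emigrants and 6.50 and 7.36 in oil emigrants, against 6.11 and 6.58 in TCDD thymocytes and 5.76 and 7.03 in oil thymocytes. Here too 3 emigrant arrays exceeded every thymocyte array and emigrants oil 1 did not. The difference was 0.80 ± 0.34, with a limma p of 0.0516 and an adjusted p of 0.358. With thymocytes oil 1 left out it was 0.49, and under oil alone it was 0.53 with that array and -0.10 when the array was dropped.

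**Figure D3:**
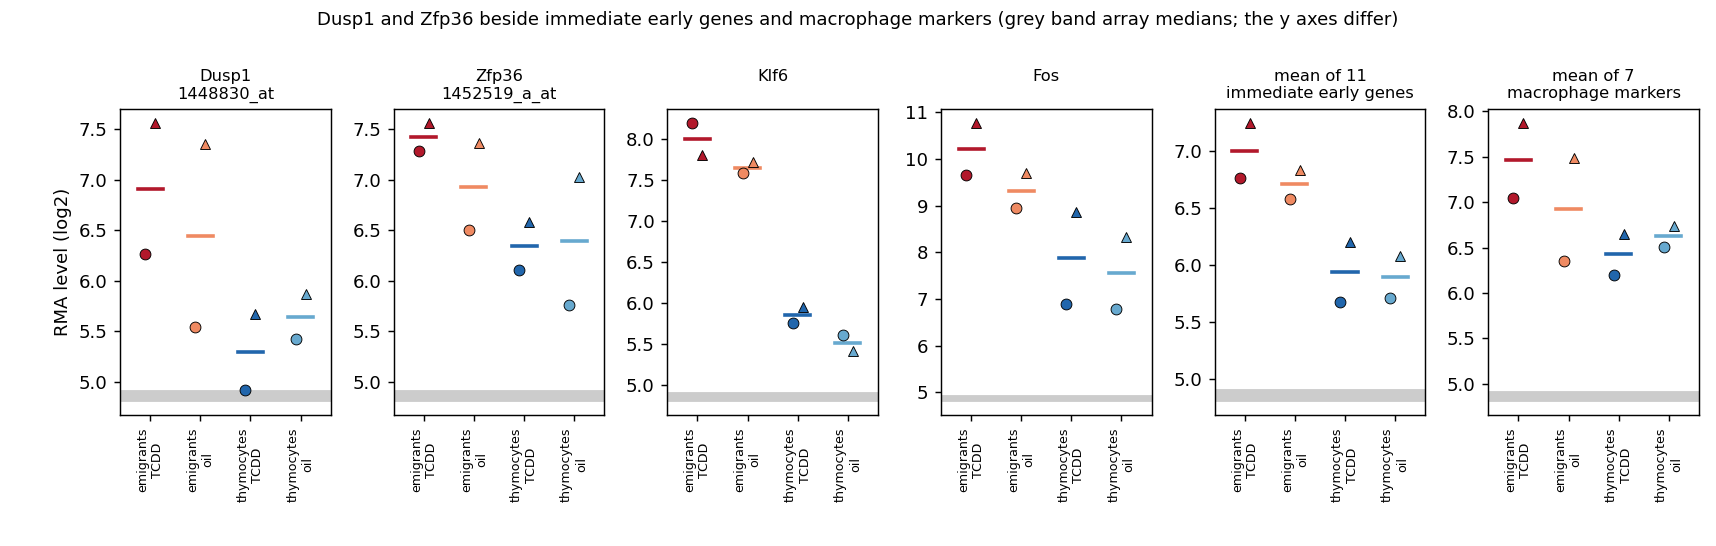
RMA level (log2, axes differ) of Dusp1 and Zfp36 beside Klf6, Fos, the mean of 11 immediate early genes and the mean of 7 macrophage markers, per array (circle replicate 1, triangle replicate 2, line group mean). Emigrants TCDD 2 and emigrants oil 2 are the 2 highest arrays for Dusp1 and for the macrophage mean alike.

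Several macrophage markers moved with Dusp1. Zfp36 followed them less closely, being at 7.28, 7.56 and 7.36 on emigrants TCDD 1, TCDD 2 and oil 2. The mean of 7 macrophage markers was 6.35 to 7.87 in emigrants and 6.20 to 6.74 in thymocytes, and all 7 had a higher mean in emigrants, although none passed the threshold. Emigrants TCDD 2 and emigrants oil 2, the arrays with the most Dusp1, had C1qc (a complement component made by macrophages) at 6.57 and 6.30, against 5.04 and 4.54 on the other emigrant arrays and 3.98 to 5.11 in thymocytes. C1qa, C1qb, Adgre1 and Cd68 had the same 2 arrays highest among emigrants, while Lyz2 and Csf1r did not. Lyz2 was highest on emigrants TCDD 1 (10.06). C1qc, named after its values were seen, was also among the 3 genes whose pattern over the 8 arrays was most like that of Dusp1. Emigrants TCDD 2 and emigrants oil 2 are also both replicate 2. In all 4 groups replicate 2 lay above replicate 1 for Dusp1, Zfp36 and the macrophage mean. The mean of the 11 immediate early genes, described next, did the same. In thymocytes the macrophage mean went from 6.20 to 6.65 with TCDD and from 6.51 to 6.74 with oil. The part of macrophages, or of what the replicate number stands for, in the Dusp1 and Zfp36 levels was not tested. Immediate early genes, which respond to signalling and to tissue handling within minutes, were higher in emigrants in 11 of 11 measured cases, with a median of 0.76. Of these Klf6, a zinc finger factor, passed the threshold and rose in emigrants: it was at 8.19 and 7.80 in TCDD emigrants and 7.58 and 7.72 in oil emigrants, against 5.76 and 5.95 in TCDD thymocytes and 5.61 and 5.42 in oil thymocytes (difference 2.13 ± 0.13, limma adjusted p 0.0185). Groups of arrays did not overlap in 5 of the 11 (Klf6, Ier2, Egr1, Fos and Egr2), against 6.87% of all genes. The names other than Klf6 were chosen after their values were seen.

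Sgk1, the gene with the full palindrome in the sequence shown above, varied widely within groups. It was at 7.17 and 5.28 in TCDD emigrants and 6.53 and 6.12 in oil emigrants, against 5.69 and 6.95 in TCDD thymocytes and 4.96 and 5.01 in oil thymocytes. The 2 oil thymocyte arrays were the lowest of the 8 and differed by little from each other, while both TCDD groups spread over more than 1 log2 unit. The source difference was 0.62 ± 0.47 with an adjusted p of 0.598 in limma, and 0.15 with emigrants TCDD 1 left out.

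Tsc22d3 and Per1 overlapped between the sources. Tsc22d3 with 1420772_a_at ranged from 5.86 to 6.87 in emigrants and from 5.53 to 7.01 in thymocytes, a difference of -0.09 ± 0.38 (SE). With 1425557_x_at it ranged from 5.70 to 6.05 in emigrants and from 5.85 to 6.34 in thymocytes, a difference of -0.21 (limma 95% interval -0.56 to 0.15). Per1 ranged from 5.78 to 6.25 in emigrants and from 5.52 to 5.97 in thymocytes, a difference of 0.13 (interval -0.23 to 0.50). The interval of Per1 leaves room for a rise of up to 0.50, while that of Tsc22d3 1420772_a_at is wider, up to 0.83. The 4 groups of Per1 overlapped with their neighbours in the order of means, as did those of Tsc22d3 1420772_a_at, Dusp1 and Zfp36.

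**Figure D4:**
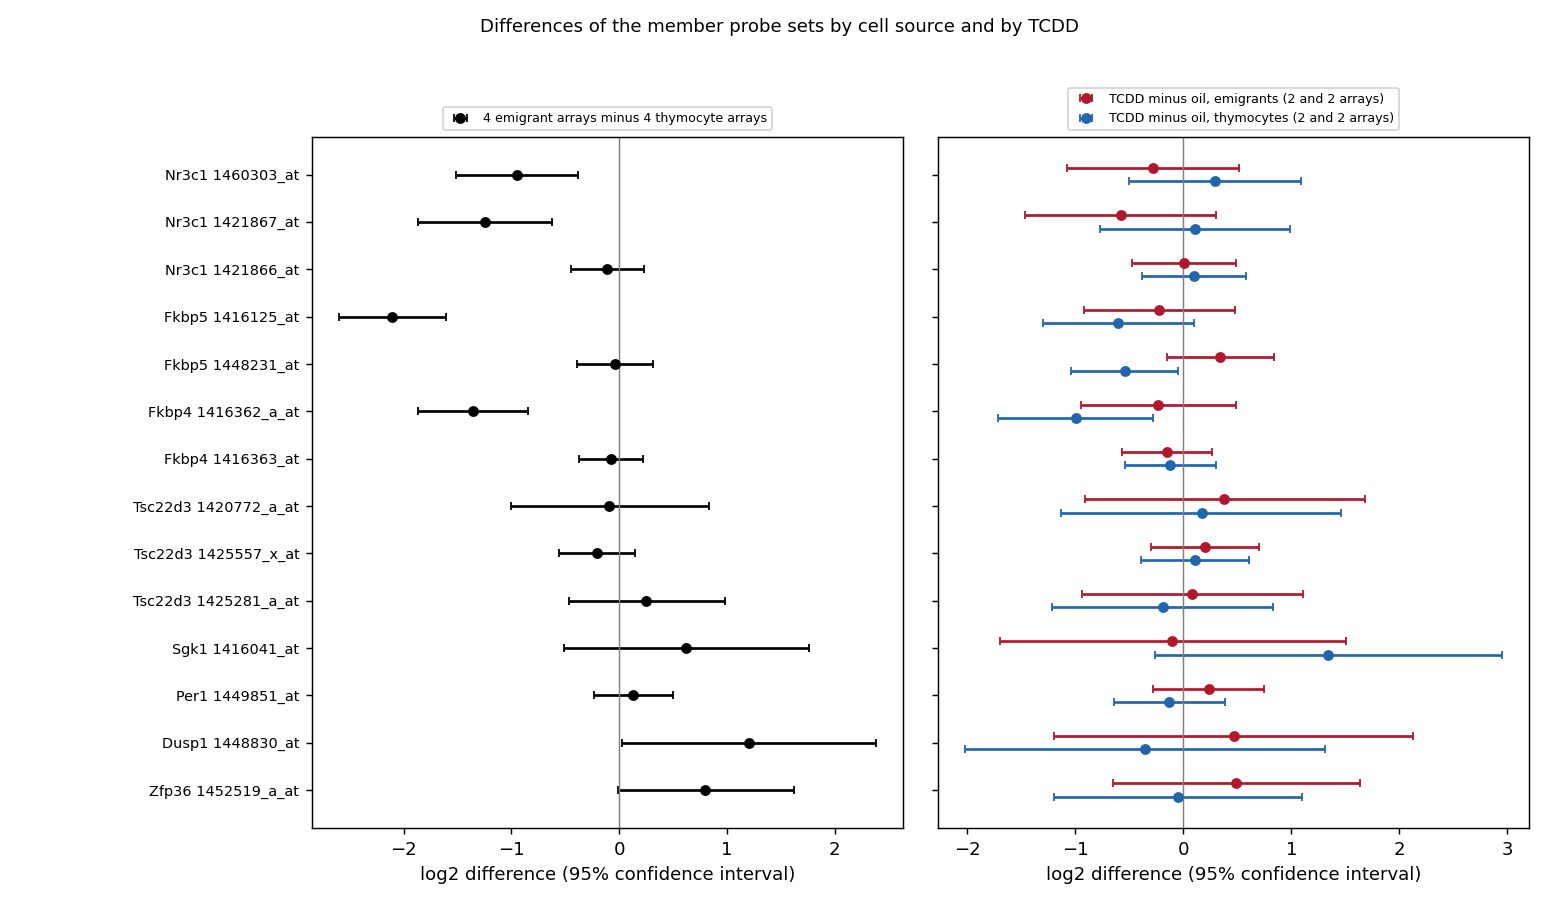
log2 differences with 95% confidence intervals from limma for the 14 member probe sets: 4 emigrant minus 4 thymocyte arrays on the left, TCDD minus oil within emigrants and within thymocytes on the right. The source intervals of Fkbp5 1416125_at (-2.60 to -1.61) and Fkbp4 1416362_a_at (-1.87 to -0.85) lie farthest from 0.

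TCDD left no member past the threshold in either source. In thymocytes 0 of 22626 probe sets passed (0%, smallest adjusted p of 1 in limma), so nothing about the members can be read from the absence of calls. At an unadjusted p under 0.05, 2 members were lower and 0 higher, where 0.579% and 0.804% of all probe sets reach that level. Fkbp4 1416362_a_at was at 6.14 and 5.78 in TCDD thymocytes, against 7.26 and 6.64 in oil thymocytes, a difference of -0.99 ± 0.30 (limma p 0.0144, adjusted p 1). Fkbp5 1448231_at was at 5.29 and 5.59 in TCDD thymocytes, against 5.86 and 6.11 in oil thymocytes, a difference of -0.54 ± 0.20 (limma p 0.0357, adjusted p 1). The brighter Fkbp5 probe set, 1416125_at, differed by -0.60 ± 0.29, and it too did not overlap. Its value was -0.88 with thymocytes oil 1 left out and -0.32 with thymocytes oil 2 left out. In these 3 probe sets both TCDD thymocyte arrays were below both oil thymocyte arrays, against 11% of all probe sets.

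Sgk1 was the 1 member with both TCDD thymocyte arrays above both oil thymocyte arrays, a pattern shown by 9.7% of all probe sets. Its difference was 1.34 ± 0.66, with a limma p of 0.0874 and an adjusted p of 1. It was 0.71 with thymocytes TCDD 2 left out and 1.97 with thymocytes TCDD 1 left out, and no fold is given because both oil thymocyte arrays were close to the array medians. The 2 brighter Nr3c1 probe sets differed by 0.29 ± 0.33 and 0.11 ± 0.36. Differences of Dusp1, Zfp36, Per1 and the 2 brighter Tsc22d3 probe sets lay between -0.35 and 0.17, each smaller than its standard error. Of the 14 probe sets, 6 had a higher and 8 a lower mean in TCDD thymocytes, with a median of -0.08.

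In emigrants TCDD again gave 0 calls of 22626 probe sets (0%, limma), and no member reached an unadjusted p under 0.05, where 0.504% of all probe sets were higher and 0.703% lower at that level. Arrays did not overlap in 2 members that were higher with TCDD, Fkbp5 1448231_at (difference 0.34) and Tsc22d3 1425557_x_at (0.20), against 13.7% of all probe sets. They did not overlap in 1 that was lower, Nr3c1 1421867_at, at -0.58 ± 0.36, against 10.9%. Its value was -0.26 with emigrants TCDD 1 left out and -0.91 with emigrants TCDD 2 left out, while Fkbp5 1448231_at ranged from 0.14 to 0.54 and Tsc22d3 1425557_x_at from 0.08 to 0.32 over the arrays left out in turn. Dusp1 differed by 0.47 ± 0.69 and Zfp36 by 0.49 ± 0.47 in emigrants. Both values depended on emigrants oil 2, without which they were 1.37 and 0.92, while without emigrants oil 1 they were -0.44 and 0.07. Sgk1 differed by -0.10 ± 0.66. Leaving out 1 TCDD emigrant array turned its sign or enlarged it: with emigrants TCDD 2 left out it was 0.85, and with emigrants TCDD 1 left out it was -1.04.

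The TCDD differences in emigrants and in thymocytes were set against each other with an interaction term, which called 0 probe sets (0%, limma). Fkbp5 1448231_at came closest among the members, with 0.34 in emigrants against -0.54 in thymocytes, a difference of 0.89 ± 0.29 (limma p 0.0209, adjusted p 1). For Sgk1 the difference was -1.44 ± 0.94, and -0.49 with emigrants TCDD 2 left out. The mean of both sources gave Fkbp4 1416362_a_at a TCDD difference of -0.61 ± 0.21 (limma p 0.0254, adjusted p 1) and Fkbp5 1416125_at one of -0.41 ± 0.20, again with 0 calls over all probe sets (0%).

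Within each treatment the sources were compared by 2 arrays against 2, which share arrays with the comparisons above. Under TCDD no probe set passed (0%, smallest adjusted p of 0.1 in limma), and emigrants did not overlap with thymocytes in 4 members that were lower, against 15.1% of all probe sets, and in 3 that were higher, against 20.6%. The 4 were those that separated over all 8 arrays, and the 3 were Dusp1 (1.61), Zfp36 (1.08) and Fkbp5 1448231_at (0.41). Under oil no probe set passed (0%, smallest adjusted p of 0.104), and 5 members were lower without overlap, against 18.8%, and 1 higher, Sgk1 (1.34), against 19.9%. The fifth lower one was Fkbp5 1448231_at at -0.48. Its 2 source differences therefore had opposite signs in the 2 treatments. For Fkbp4 1416362_a_at the source difference was -0.98 under TCDD and -1.74 under oil.

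Other genes of the pathway were set beside the members by list, each gene by its brightest probe set, and none of the lists other than the immediate early genes held a called gene between the sources. Among the 7 measured chaperones of the receptor complex, all 7 had a lower mean in emigrants, with a median of -0.51 beside 0.02 over all genes. The 2 with the smallest p were Dnaja1, an Hsp40 co-chaperone (-0.51 ± 0.15), and Bag1, which links Hsp70 to the receptor (-0.69 ± 0.21), and Bag1 was the 1 chaperone with no overlap, against 6.04% of genes. Coregulators of the receptor were split 4 higher and 3 lower (median 0.10), with Crebbp, a histone acetyltransferase, at 0.72 ± 0.16 and Smarca4, the ATPase of the SWI/SNF remodeller, at -1.53 ± 0.51. Genes of steroid synthesis and activation were 3 higher and 3 lower (median -0.02). Their leading members were Star, the cholesterol carrier, at 0.28 ± 0.10 and Hsd11b1, which regenerates active hormone, at 0.28 ± 0.28.

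Of 20 other genes known to be induced by glucocorticoids, 14 had a higher mean in emigrants and 6 a lower one, with a median of 0.48. In 7 all emigrant arrays lay above all thymocyte arrays, against 6.87% of genes, and in 1, Cxcr4, all lay below, against 6.04%. Cxcr4 was under the array median on 7 of the 8 arrays, so its level is not reliable. Rhob, 1 of the 7, was under it on 5. Both were named after their values were seen. Nfkbia, the inhibitor of NF-kappaB, was at 12.52 and 12.15 in TCDD emigrants and 12.43 and 12.42 in oil emigrants, against 11.05 and 11.87 in TCDD thymocytes and 10.67 and 11.25 in oil thymocytes (difference 1.17 ± 0.23, limma adjusted p 0.103). Bcl2l11, which encodes the death protein BIM, was at 10.62 and 10.08 in TCDD emigrants and 11.00 and 9.77 in oil emigrants, against 7.76 and 9.14 in TCDD thymocytes and 7.54 and 8.57 in oil thymocytes (2.12 ± 0.44, limma adjusted p 0.112). Both had higher levels on every emigrant array, opposite to Fkbp5. Glucocorticoid-induced genes thus did not lie on 1 side between the sources. Genes that glucocorticoids repress were 7 higher and 3 lower (median 0.13), led by Ifng at 1.50 ± 0.57 and Csf2 at 0.72 ± 0.30, both cytokines. Clock genes other than Per1 were 7 higher and 3 lower (median 0.18), led by Clock at 0.60 ± 0.22 and Cry2 at -0.32 ± 0.13. Csf2 was under the array median on 6 arrays and Cry2 on 5.

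**Figure D5:**
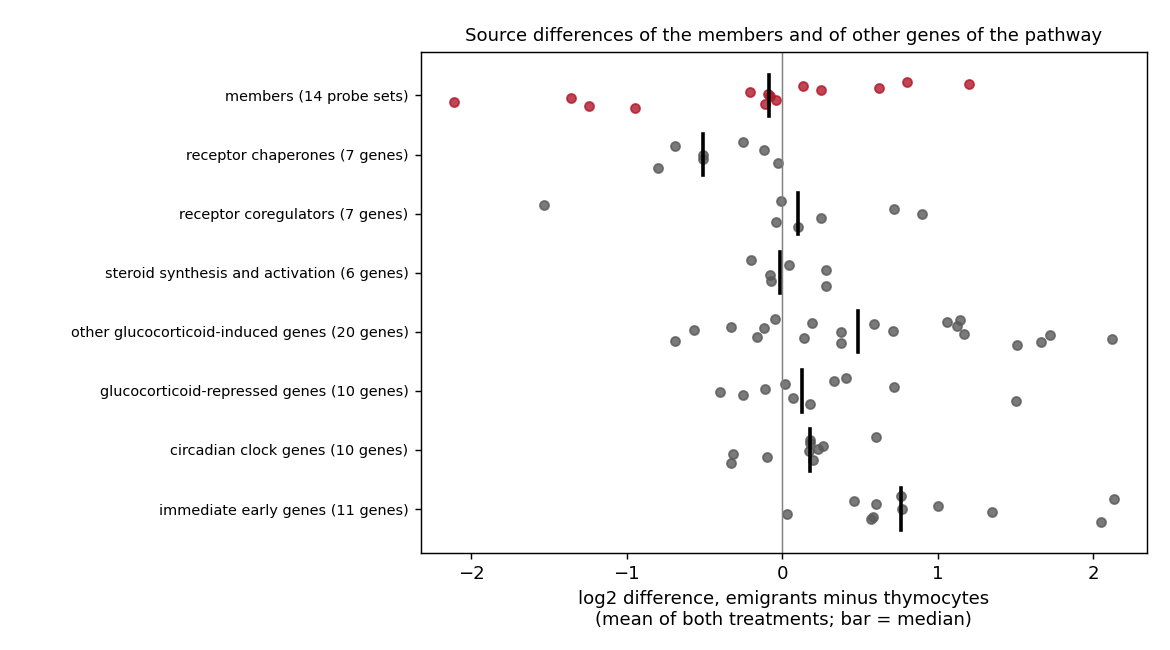
log2 difference, emigrants minus thymocytes, of each member probe set (red) and of each measured gene of 7 other lists (grey), with the median as a bar. Chaperones lie below 0 (median -0.51) and immediate early genes above 0 (median 0.76), while the members spread from -2.11 to 1.20.

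With TCDD the same lists held no called gene in either source. In emigrants 14 of 20 other glucocorticoid-induced genes had a higher mean with TCDD (median 0.09) and in thymocytes 15 of 20 (median 0.10), beside medians over all genes of 0.03 and -0.01. The chaperones had a lower mean in 6 of 7 cases in emigrants (median -0.24) and in 5 of 7 in thymocytes (median -0.11). Their leading members were Dnaja1 in emigrants (-0.57 ± 0.22, limma p 0.0387, adjusted p 1) and Hspa8, the constitutive Hsp70, in thymocytes (-0.35 ± 0.18). Of 7 AhR targets, by contrast, all 7 had both TCDD emigrant arrays above both oil emigrant arrays, against 14.6% of genes, with a median of 2.15. In thymocytes 6 of the 7 did, against 9.78%, with a median of 0.68.

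Across the 8 arrays the members fell into sets with like patterns. The brighter Fkbp5 probe set had a Pearson r of 0.91 with Fkbp4 1416362_a_at and of 0.82 with each of the 2 brighter Nr3c1 probe sets, while Dusp1 had 0.86 with Zfp36. Dusp1 and Fkbp5 1416125_at were at -0.57. These are descriptions over 8 arrays in 4 groups, so a difference between the sources enters every value. Among 7309 other genes the most similar to Fkbp5 were Rfc3 (r 0.995), Nfya (0.990) and Zfp704 (0.988), and to Nr3c1 1460303_at Epcam (0.974), Snhg5 (0.970) and Rabggtb (0.966). Fkbp4 was followed most closely by Txnrd1 (0.986), Nop56 (0.983) and Irf8 (0.978). The closest to Dusp1 were Hexa (0.986), Gabarapl1 (0.980) and C1qc (0.979), and to Zfp36 Lst1 (0.987), Trim43a (0.987) and Grina (0.968). Sgk1 was nearest to Ifnar2 (0.949), Rrm2b (0.945) and AW112010 (0.935), Tsc22d3 1420772_a_at to Prkra (0.935), Pmfbp1 (0.930) and Lynx1 (0.927), and Per1 to Napa (0.940), Ninj2 (0.920) and Il1f8 (0.914).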

How the data were processed

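Per the labels' protocols, amplified RNA of the sorted cells was measured on Affymetrix arrays. The authors deposited log2 values of 22690 probe sets, made with RMA per the submitters' processing notes, with no version named. RMA corrects background, equalises distributions between arrays and summarises probes, which removes any shift shared by most genes and shrinks differences at low signal. Depth does not apply, and the number of arrays limits the precision.

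From these values 64 control probe sets were left out and 22626 were tested in limma 3.58.1 (R 4.3.3; group means of all 8 arrays, 4 residual and 2.25 prior degrees of freedom, two-sided, Benjamini-Hochberg over all probe sets, threshold 0.05) in 7 comparisons. The median residual SD was 0.214. The code was tested on simulated data.

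Of the probe sets, 20380 had 1 gene symbol in the platform annotation, 691 several and 1555 none. For 20351 of the 20380 the gene identifier was found in a RefSeq table, and the symbol given there was used. This gave 12393 genes, each represented in lists by its brightest probe set by mean. From each of the 8 gene lists the members past the threshold are named, otherwise up to 2 with the smallest unadjusted p. Markers of 8 cell types were also listed. Genes of like pattern are the 3 with the highest Pearson r, among genes with mean levels above the median of all probe sets. Motifs were searched in Python 3.11.15, and figures drawn with matplotlib 3.10.9. The members and lists were chosen with earlier results of these data known.

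The Treatment field gives 10 nM TCDD where the protocol gives 10 µg/kg. Alternatives were repeated quantile normalization, median centring, only brighter probe sets, 1 probe set a gene, a trend and robust prior, fitting only the arrays compared, a block for the replicate number (also within each source), emigrants oil 1 grouped by its Treatment field, and leaving out each array.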

Additional observations from a re-analysis of the deposited data

How the results depend on the processing

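Between the sources, as the mean of both treatments, 0 member probe sets passed the threshold as reported, and 0 with a trend and robust prior. Over all probe sets 14 passed as reported and 8 with that prior. The total was 35 after repeated quantile normalization, 19 after median centring and 109 with only brighter probe sets. It was 18 with 1 probe set a gene and 88 with emigrants oil 1 counted as TCDD. In the last 5 settings the member count was 1, always Fkbp5 1416125_at. Its limma adjusted p was, in the same order, 0.0495, 0.0496, 0.0373, 0.0353 and 0.0282. Leaving out 1 array gave counts of 0 to 1, with 1 without emigrants oil 2, and its adjusted p from limma reached 0.21 at most over all settings. The number of members with every emigrant array above every thymocyte array was 0 as reported and ranged from 0 to 2 when 1 array was left out, an alternative chosen after seeing the data: without emigrants oil 1 it was 2 (Dusp1 and Zfp36). The number with every emigrant array below stayed at 4.

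Same-numbered arrays deviated together within emigrants (correlation 0.52) and within thymocytes (0.73) but not across the sources (-0.15 to 0.12), and nothing in the labels pairs them. Within emigrants TCDD 1 had a Spearman rho of 0.988 with oil 1 and 0.952 with TCDD 2, and within thymocytes TCDD 1 had 0.986 with oil 1 and 0.968 with TCDD 2. What a shared number stands for was not tested. With the replicate number as a block the count was 1 (Fkbp5, limma adjusted p 0.0415), while 226 of all probe sets passed. With the replicate block within each source it was 6 between the sources, 5 under TCDD and 2 under oil. Of all 22626 probe sets, 2959 then passed between the sources, 361 under TCDD and 1169 under oil. As reported these totals were 14, 0 and 0.

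The TCDD comparisons and the interaction gave 0 members past the threshold under every alternative run. Over single probe sets, 1568 alternative values were computed: 1456 kept the sign of the reported value, 112 turned it without being past the threshold, and 20 came newly within it. The cause of these changes was not tested. With 2 arrays a group only large differences can pass, and probe sets near or below the array medians give no level. Leaving out 1 array leaves a lone array that is assumed to vary like the other groups.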
